A study of Mus musculus with 16 samples.

Results

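Amy1, Dcakd, Hdlbp and Ttll1 had lower signals in GPER KO than in intact cardiomyocytes of both sexes. These 4 genes, of 17097 measured, were selected on that difference on the same arrays, so their differences between genotypes are given as a description, with no test. They have 8 probe sets of the 45141 on the array, 1 for Amy1, 1 for Dcakd, 3 for Hdlbp and 3 for Ttll1, and 7 of the 8 had a lower mean in GPER KO in both sexes, against 24.4% of all probe sets. Amy1 was the farthest apart, with a back-transformed mean signal in GPER KO that was 63.3% lower than in intact mice in females and 74.4% lower in males, although its signals in GPER KO were near the array medians and may not lie above background, so that these percentages describe signals and not amounts of RNA. Dcakd was 46.8% and 38.3% lower, Ttll1 34.9% and 38.7% lower, and Hdlbp 22.8% and 23.4% lower, in females and in males in that order. For Ttll1 and Hdlbp these percentages are from the probe set with the highest mean. Ttll1 was 27.7% and 21.1% lower on 1426427_PM_at, and not lower in both sexes on 1443193_PM_at. Hdlbp was 19.9% and 19.3% lower on 1415988_PM_at, and 12.9% and 13.3% lower on 1415987_PM_at.

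The arrays measured RNA of ventricular cells from 16 adult mice, 4 in each of 4 groups, female mice with the GPER-knockout genotype (GPER KO), female wild type mice (intact), male GPER KO mice and male intact mice. Each array is 1 mouse, and the label gives 15 weeks of age for all of them, while the methods of the study give an older age. GPER is the G protein-coupled estrogen receptor. The study describes the deletion as specific to cardiomyocytes, whereas the strain, the promoter that drove the recombinase and any allele that the intact mice carry are not given in the sources used here. Mice received heparin and anesthesia before the heart was removed, and no other treatment is given. Cells came from collagenase perfusion, straining and a slow spin, without a sort, so preparations are enriched for cardiomyocytes. Females have animal numbers 417 to 427 and males 430 to 453, so sex and order of the animal numbers cannot be told apart.

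Values are log2 signals per probe set from robust multi-array average (RMA), a method that corrects background, equalizes the distributions of the arrays and summarizes the probes of a set. Array medians ran from 3.47 to 3.51, and no 2 arrays correlated below 0.982. Where a gene has several probe sets, the one with the highest mean stands for it. Gper1, the deleted gene, has 1 probe set, with 2.66 to 2.97 in female GPER KO and 2.76 to 3.11 in female intact mice, and with 2.72 to 2.86 in male GPER KO and 2.64 to 2.93 in male intact mice. These groups overlap, and the signals are at percentile 24.5 of all probe sets, so a difference might not be measurable there. Since the place of the probe set relative to the deleted sequence is also not known here, it checks nothing about the labels. The 11 measured markers of cardiomyocytes had a mean log2 level of 12.1 to 12.2 in all GPER KO arrays and of 12.1 to 12.3 in all intact arrays.

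The 4 genes have no common pathway. Amy1 encodes an alpha-amylase, the secreted enzyme of saliva that cleaves starch and glycogen at their alpha-1,4 bonds. Dcakd carries a dephospho-CoA kinase domain, named after the last step of coenzyme A synthesis, the carrier of acyl groups in fatty acid and pyruvate oxidation. Hdlbp encodes vigilin, a protein with a long row of KH domains that binds RNA at the endoplasmic reticulum and was first described as a protein that binds high-density lipoprotein. Ttll1 encodes the catalytic subunit of the tubulin polyglutamylase complex, which adds glutamate side chains to microtubules and is best known from cilia and sperm tails. In the RefSeq gene table of GRCm38.p6 they lie on different chromosomes, Amy1 on 3, Dcakd on 11, Hdlbp on 1 and Ttll1 on 15, and none of them shares chromosome 5 with Gper1.

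Amy1 had log2 signals of 4.05, 3.40, 3.30 and 3.73 in female GPER KO mice (animals 417, 419, 426 and 427), against 5.58, 5.17, 5.04 and 4.46 in female intact mice (418, 421, 422 and 425). In male GPER KO mice it had 3.49, 3.75, 3.58 and 3.51 (431, 432, 444 and 451), against 5.76, 4.95, 6.07 and 5.41 in male intact mice (430, 433, 452 and 453). All GPER KO arrays lie below all intact arrays, with the nearest pair in females, where GPER KO 417 and intact 425 are 0.41 apart, while the gap in males is 1.20. Group means were 3.62 ± 0.34 in GPER KO and 5.06 ± 0.46 in intact females, and 3.58 ± 0.12 in GPER KO and 5.55 ± 0.48 in intact males (SD, n = 4 each). The log2 difference was -1.45 in females and -1.97 in males, each with a standard error of 0.24 from limma's fit. Among all genes it ranked 1 from the lowest in females and 2 in males. Male GPER KO arrays were thus close together, whereas intact arrays of both sexes spread over more than 1 log2 unit. No detection call was used, so whether the signals in GPER KO lie above background is not known here.

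The Amy1 gene has 2 start sites in RefSeq, and mouse Amy1 is known for a start used in the salivary gland and another used in the liver. The windows around both are shown because the probe set has the suffix a_at, which marks sets that match alternative transcripts of a gene, so its signal does not say from which start it came. Each window runs from 250 bases before to 50 bases after a start site on build GRCm38.p6, and capitals mark matches to the motifs searched.
Amy1 upstream start (chr3:113577701-113578000, minus strand): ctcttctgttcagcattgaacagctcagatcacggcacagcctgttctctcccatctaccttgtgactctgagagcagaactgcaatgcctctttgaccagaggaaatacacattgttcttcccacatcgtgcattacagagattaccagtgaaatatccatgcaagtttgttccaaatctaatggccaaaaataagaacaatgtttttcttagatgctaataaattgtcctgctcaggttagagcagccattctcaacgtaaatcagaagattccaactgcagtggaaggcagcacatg
Amy1 downstream start (chr3:113574713-113575012, minus strand): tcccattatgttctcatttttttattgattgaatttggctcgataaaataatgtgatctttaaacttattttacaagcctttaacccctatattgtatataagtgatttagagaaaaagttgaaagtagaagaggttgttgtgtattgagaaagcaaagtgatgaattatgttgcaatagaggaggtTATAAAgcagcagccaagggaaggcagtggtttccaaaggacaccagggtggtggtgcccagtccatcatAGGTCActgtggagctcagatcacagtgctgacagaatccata
The upstream window holds no match to any motif searched. The downstream window holds a TATA box (TATAAA), with its first base at position -63 from the start, and an AGGTCA, which is 1 arm of the estrogen response element, at position 8. TATAAA is found in 13.6% and AGGTCA in 16.3% of the 32851 RefSeq windows of this kind that were counted. The count leaves out the windows of a chromosome that holds none of the selected genes. The other motifs searched, on both strands, were TGACG (1 arm of the cAMP response element, in 20.8% of windows), CCAAT (37.4%), GGGCGG (the GC box, 35.7%) and the E-boxes CACGTG (7.2%) and CAGCTG (16.3%), which read the same on both strands. A match is a run of letters, not a known binding site, and the absence of one says only that these letters are not in this window.

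Amylase can cleave glycogen, which is also the store of glucose in heart muscle, so genes of glycogen and starch handling were set beside Amy1. Whether amylase acts on glycogen in heart muscle was not tested. Amy2a5, the pancreatic amylase gene next to Amy1, had 1.98 to 2.18 in female GPER KO and 2.0 to 2.04 in female intact mice, and 2.03 to 2.16 in male GPER KO and 2.01 to 2.10 in male intact mice. Those groups overlap, and the signals are at percentile 0.660 of all probe sets, so a difference might not be measurable there. Of 25 measured genes of glycogen and starch handling other than Amy1, 17 were below intact in females and 9 in males. Their median log2 difference was -0.07 in females and 0.07 in males, where the median of all genes was -0.02 and 0.01. Of all genes 58.8% were below intact in females and 43.5% in males, so the counts of this and the other lists of related function are to be read against these shares. Limma called 0 of the glycogen and starch genes in females, where 5 had an unadjusted p under 0.05. The share of all genes at an unadjusted p under 0.05 is not given here. Counts at that level, in this and later lists, therefore have no share to be read against. In males it called Stbd1, a protein that anchors glycogen to membranes, which was higher in GPER KO by 0.85 (standard error 0.12, adjusted p = 0.00327), with 0.34 in females (adjusted p = 0.274). Called means an adjusted p under 0.05 by the Benjamini-Hochberg method over all genes, which 0.281% of genes reached in females and 0.62% in males, in either direction. The 13 measured markers of pancreatic and salivary acinar cells, the cells that make amylase in bulk, had a median log2 difference of -0.003 in females and 0.04 in males, with 0 called in either sex and 1 and 2 at an unadjusted p under 0.05. The mean level of these markers was 3.33 to 3.36 in female GPER KO and 3.33 to 3.45 in female intact arrays, and 3.32 to 3.44 in male GPER KO and 3.31 to 3.36 in male intact arrays.

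**Figure D1:**
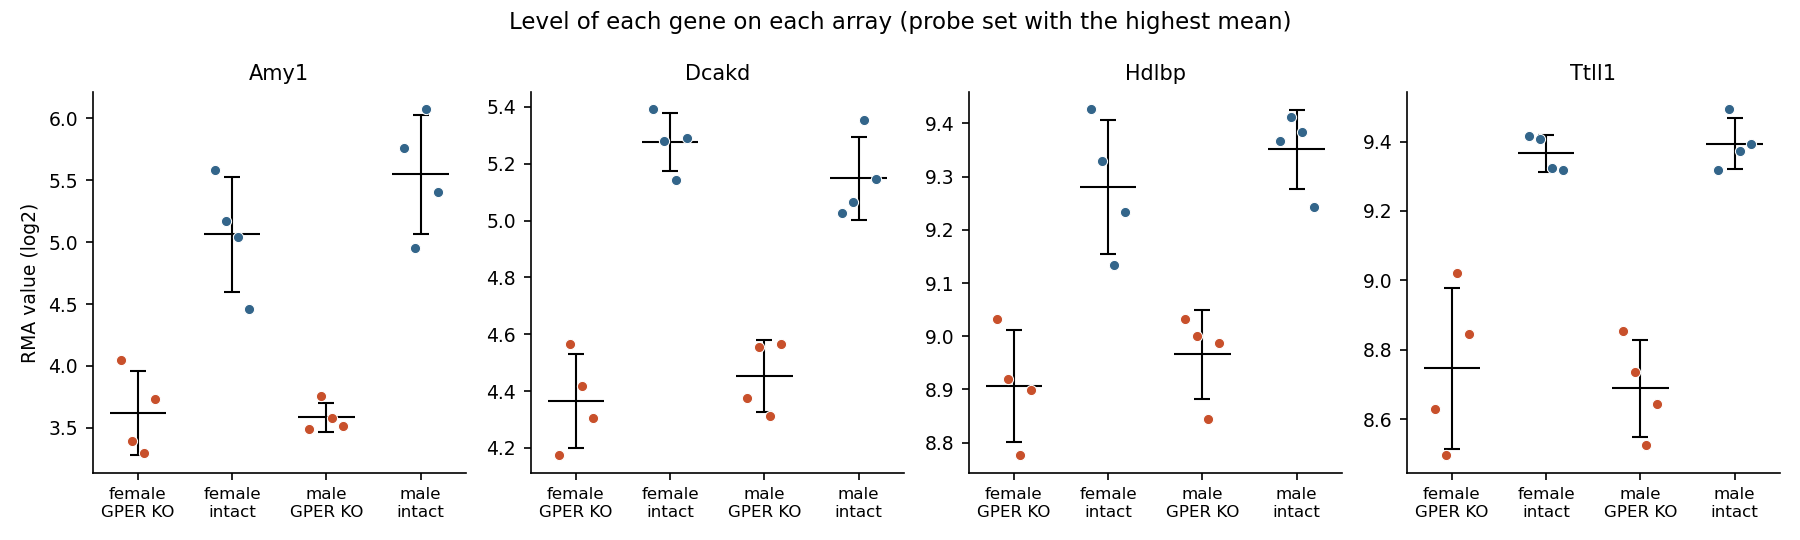
Log2 RMA signal of Amy1, Dcakd, Hdlbp and Ttll1 on each of the 16 arrays, by sex and genotype, with a separate vertical scale for each gene. Each point is a mouse, with the mean of its group as a line and 1 SD as the bar (n = 4 per group). In each panel the GPER KO points lie below the intact points of both sexes, with gaps of 1.20 for Amy1 in males and 0.10 for Hdlbp in females.

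Dcakd had log2 signals of 4.17, 4.57, 4.42 and 4.30 in female GPER KO mice (417, 419, 426 and 427), against 5.39, 5.28, 5.14 and 5.29 in female intact mice (418, 421, 422 and 425). In male GPER KO mice it had 4.38, 4.55, 4.31 and 4.57 (431, 432, 444 and 451), against 5.03, 5.06, 5.35 and 5.15 in male intact mice (430, 433, 452 and 453). The gap between the highest GPER KO and the lowest intact array was 0.58 in females and 0.46 in males, so the genotypes do not overlap in either sex. The log2 difference was -0.91 in females and -0.70 in males, each with a standard error of 0.09, from means of 4.37 ± 0.17 in GPER KO and 5.28 ± 0.10 in intact females and of 4.45 ± 0.13 in GPER KO and 5.15 ± 0.15 in intact males (SD, n = 4 each). Dcakd has 1 probe set, so the difference has no second probe set to set beside it.

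The start of Dcakd is shown for comparison with those of Amy1.
Dcakd (chr11:103017098-103017397, minus strand): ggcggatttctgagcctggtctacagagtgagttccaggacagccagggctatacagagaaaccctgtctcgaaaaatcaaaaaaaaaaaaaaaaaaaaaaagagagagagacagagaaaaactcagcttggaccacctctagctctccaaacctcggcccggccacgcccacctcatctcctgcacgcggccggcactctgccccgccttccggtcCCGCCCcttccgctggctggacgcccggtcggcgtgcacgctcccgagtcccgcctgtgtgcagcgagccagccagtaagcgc
Its window has a GC content of 59.0%, against 42.7% and 38.0% for the Amy1 windows and a median of 52.7% over all windows counted. It holds 1 GC box, read on the other strand as CCGCCC, and none of the other motifs.

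Of 18 measured genes of coenzyme A synthesis and use other than Dcakd, 11 were below intact in females and 8 in males, with median log2 differences of -0.04 and 0.04. By limma 0 were called, near the share of all genes (0.281% in females and 0.62% in males), with 5 in females and 4 in males at an unadjusted p under 0.05. Nudt8 and Nudt7, hydrolases of the family that degrades coenzyme A, had -0.13 and -0.34 in females and 0.07 and -0.18 in males. Coasy, which carries out the final steps of coenzyme A synthesis in mammals, had log2 differences of 0.02 and 0.16 in females and males, with adjusted p = 0.952 and 0.682. The gene of this list with the lowest adjusted p in females was Pank1, at -0.33 in females and -0.22 in males (adjusted p = 0.0733 and 0.232).

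Hdlbp was lower on each of its 3 probe sets, by amounts that differ from set to set. On the set with the highest mean, 1419869_PM_s_at, it had 9.03, 8.92, 8.78 and 8.90 in female GPER KO mice (417, 419, 426 and 427), against 9.43, 9.33, 9.13 and 9.23 in female intact mice (418, 421, 422 and 425). In male GPER KO mice the values were 9.03, 9.0, 8.84 and 8.99 (431, 432, 444 and 451), against 9.37, 9.41, 9.38 and 9.24 in male intact mice (430, 433, 452 and 453). The log2 difference on this set was -0.37 in females and -0.39 in males, each with a standard error of 0.07. The lowest intact array stood above the highest GPER KO array by 0.10 in females and 0.21 in males, so the groups are separate but near each other.

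The other 2 Hdlbp probe sets had smaller differences. On 1415988_PM_at the range was 8.12 to 8.28 in female GPER KO and 8.34 to 8.66 in female intact mice, and 7.98 to 8.20 in male GPER KO and 8.28 to 8.56 in male intact mice, with log2 differences of -0.32 and -0.31. On 1415987_PM_at the range was 8.66 to 8.91 in female GPER KO and 8.93 to 9.14 in female intact mice, and 8.78 to 8.92 in male GPER KO and 8.93 to 9.16 in male intact mice, with log2 differences of -0.20 and -0.21. This last set is the member probe set nearest to 0 among those lower in both sexes, and its genotypes are separated by 0.01 in females and 0.007 in males. The suffix s_at marks a set whose probes match more than 1 transcript. Which transcripts these are, and whether any belong to other genes, was not examined here. Part of the signal of 1419869_PM_s_at may thus come from other genes. Deviations from group means correlated between the sets with r = 0.67 for 1415987_PM_at and 1415988_PM_at, 0.48 for 1419869_PM_s_at and 1415988_PM_at and 0.09 for 1419869_PM_s_at and 1415987_PM_at, over 16 arrays that the sets share.

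RefSeq gives Hdlbp 3 start windows, of which the most upstream is shown beside those of Amy1 and Dcakd.
Hdlbp (chr1:93478868-93479167, minus strand): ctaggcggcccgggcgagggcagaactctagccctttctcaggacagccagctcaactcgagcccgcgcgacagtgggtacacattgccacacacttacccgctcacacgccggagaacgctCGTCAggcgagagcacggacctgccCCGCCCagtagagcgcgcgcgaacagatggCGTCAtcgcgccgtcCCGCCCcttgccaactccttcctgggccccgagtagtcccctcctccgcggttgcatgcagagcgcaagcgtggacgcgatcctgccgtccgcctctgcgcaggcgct
With 68.0% GC it has the highest GC content of the printed windows, and it holds 2 GC boxes and 2 TGACG motifs, all read on the other strand (CCGCCC and CGTCA). Across all windows of Amy1, Dcakd and Hdlbp, no motif searched occurs in every one of these genes. Ttll1 has no entry in the promoter table.

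Of 32 measured KH domain proteins other than vigilin, 13 were below intact in females and 21 in males, with median log2 differences of 0.04 and -0.06, and limma called 0, against 0.281% and 0.62% of all genes, with 7 and 1 at an unadjusted p under 0.05. Qk, which encodes the RNA-binding protein quaking, had 0.21 in females and -0.23 in males, and Pcbp1, a poly(C)-binding protein, had 0.003 and 0.11. Of 17 measured genes of high-density lipoprotein and cholesterol handling, 4 were below intact in each sex, with medians of 0.02 in females and 0.09 in males and 0 called in either sex (1 and 5 at an unadjusted p under 0.05). Among these, Lpl, the lipoprotein lipase, had 0.05 and -0.12, and Npc2, a lysosomal cholesterol carrier, 0.10 and 0.34.

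Ttll1 was lower on 2 of its 3 probe sets and not on the third. On 1436833_PM_x_at, the set with the highest mean, it had 8.63, 8.50, 9.02 and 8.85 in female GPER KO mice (417, 419, 426 and 427), against 9.42, 9.41, 9.32 and 9.32 in female intact mice (418, 421, 422 and 425). In male GPER KO mice it had 8.85, 8.74, 8.52 and 8.64 (431, 432, 444 and 451), against 9.32, 9.49, 9.37 and 9.39 in male intact mice (430, 433, 452 and 453). Intact arrays were tight, with an SD of 0.05 in females and 0.07 in males, while GPER KO arrays had SDs of 0.23 and 0.14. The log2 difference was -0.62 in females and -0.71 in males, each with a standard error of 0.10, and the gap between genotypes was 0.30 and 0.46. The suffix x_at marks a set with probes that can also match other transcripts, so part of this signal may come from other genes.

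The set 1426427_PM_at, without that suffix, had 4.69, 4.77, 4.99 and 4.89 in female GPER KO mice and 5.28, 5.38, 5.42 and 5.11 in female intact mice. In males it had 4.92, 4.87, 4.59 and 4.79 in GPER KO mice and 4.99, 5.23, 5.12 and 5.20 in intact mice. Its log2 difference was -0.47 in females and -0.34 in males, each with a standard error of 0.09, with gaps of 0.12 and 0.08 between genotypes. Deviations from group means on this set correlated with those on the x_at set (r = 0.74 over 16 shared arrays). The third set, 1443193_PM_at, is the member probe set that was not lower in both sexes, with 4.56 to 4.83 in female GPER KO and 4.52 to 4.68 in female intact mice, and 4.39 to 4.66 in male GPER KO and 4.41 to 4.75 in male intact mice. It had log2 differences of 0.06 in females and -0.09 in males (standard error 0.08 each), its groups overlap, and its deviations correlated with those on the other sets with r = -0.32 and -0.19.

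**Figure D2:**
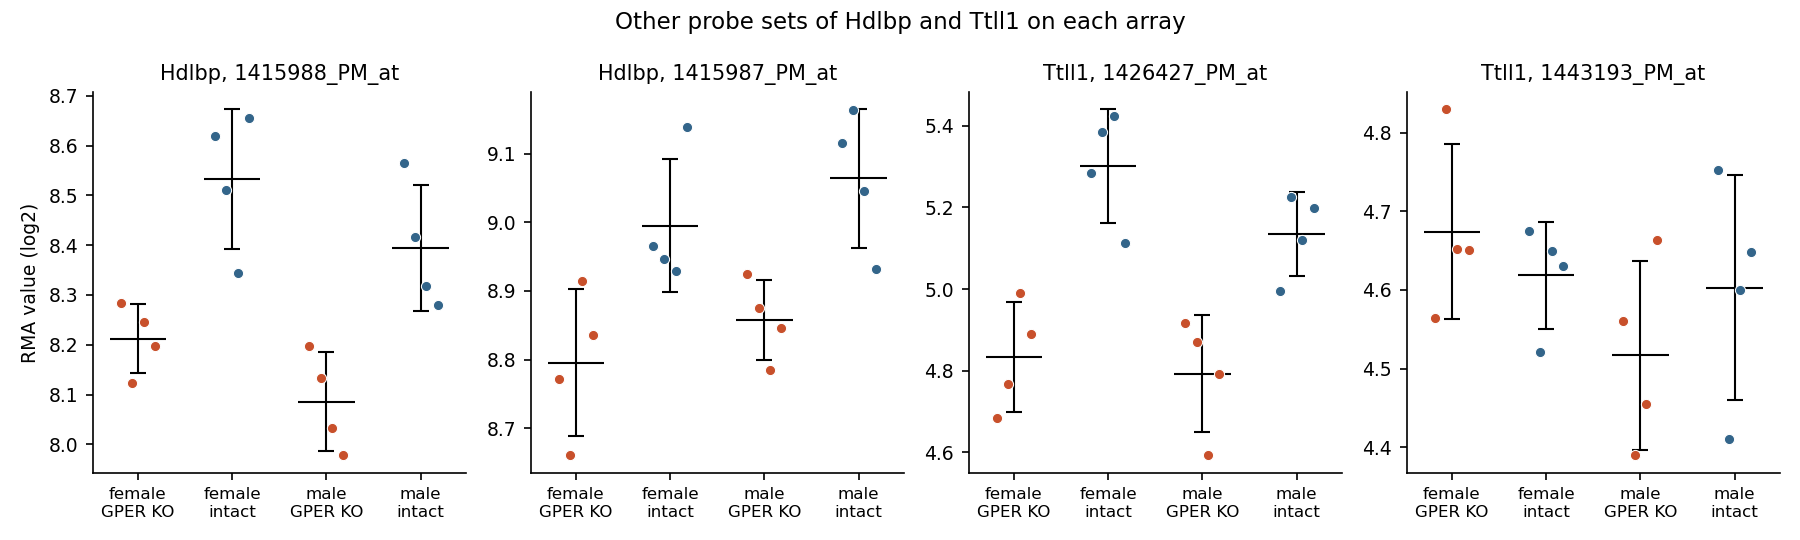
Log2 RMA signal of the other 2 probe sets of Hdlbp and of Ttll1 on each array, by sex and genotype, with a separate vertical scale for each set. Each point is a mouse, with the mean of its group as a line and 1 SD as the bar (n = 4 per group). Within each sex the genotypes are apart in the first 3 panels, by 0.01 in females for 1415987_PM_at, and overlap in the panel of 1443193_PM_at. Across the sexes they also overlap for 1415988_PM_at, where female GPER KO 417 is at 8.284 and male intact 453 at 8.280.

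Enzymes related to Ttll1 were few, so that 0 called among them is close to the share of all genes (0.281% in females and 0.62% in males). Of 12 measured members of the tubulin tyrosine ligase family other than Ttll1, 10 were below intact in females and 4 in males, with medians of -0.06 and 0.02 and 0 called (4 and 1 at an unadjusted p under 0.05). Ttl, the enzyme that restores the terminal tyrosine of alpha-tubulin, had -0.07 in females and 0.07 in males, and Ttll5, another polyglutamylase, -0.08 and 0.09. Of 4 measured partners of Ttll1 in the polyglutamylase complex, Nicn1 had -0.05 and 0.11 and Tpgs1 0.02 and 0.09, with 0 called and 0 at an unadjusted p under 0.05. Of 8 measured enzymes that remove glutamate chains or set other tubulin marks, 4 were below intact in females and 1 in males, with 0 called (1 and 4 at an unadjusted p under 0.05). Agtpbp1, which trims glutamate from tubulin, had 0.09 in females and -0.30 in males (adjusted p = 0.769 and 0.275), and Svbp, a partner of the enzymes that remove tyrosine, -0.16 and 0.14.

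**Figure D3:**
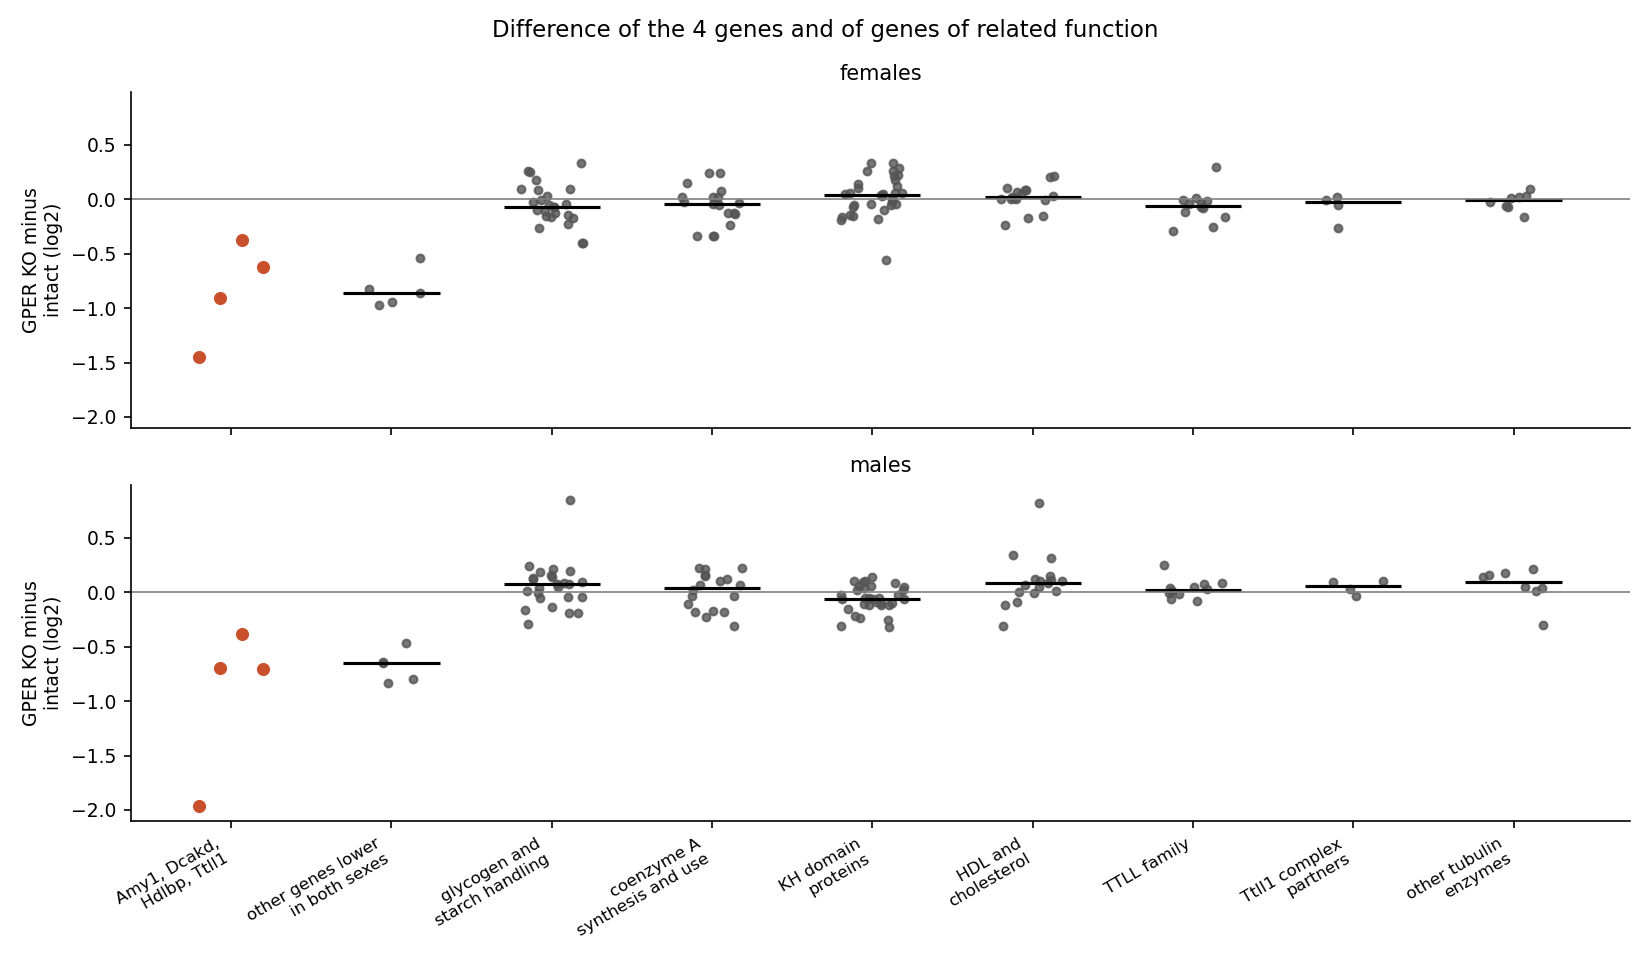
Log2 difference (GPER KO minus intact) of the 4 genes, of the other genes lower in both sexes and of genes of related function, in females (upper panel) and males (lower panel). Each point is a gene and black lines are list medians. The lists of related function lie around 0, with medians between -0.07 and 0.10, and the high point among glycogen genes in males is Stbd1 at 0.85.

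In limma's fit over all genes, 4 of the 4 genes were called lower in females and 4 of 4 in males. Over all genes 0.158% were called lower in females, 0.111% in males and 0.0526% (9 genes) in both sexes. This count was fixed by the choice of genes and nothing is read from it. All GPER KO arrays lay below all intact arrays for the 4 genes in each sex, against 3.73% of genes in females, 1.97% in males and 0.292% in both. With both sexes together, 27 genes had all 8 GPER KO arrays below all 8 intact arrays, the 4 among them. Over all probe sets, 7 of the 8 were without overlap in both sexes (0.21% of all), and 3 were called lower in females (0.0576% of all) and 4 in males (0.0598% of all). The female count of 4 called genes was 2 without intact 421 or without GPER KO 426, and 1 when fitted on female arrays alone. With sets of suffix s_at and x_at left out, a setting chosen after seeing the data, it was 3 in females and 2 in males.

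The 5 other genes called lower in both sexes are set beside them as values from the same contrasts and the same control arrays. Ano10, a member of the anoctamin family, had log2 differences of -0.95 in females and -0.79 in males, and Exoc2, a subunit of the exocyst, -0.86 and -0.83. Ssbp2, a DNA-binding transcriptional cofactor, had -0.97 and -0.65, Ctnna3, an alpha-catenin of the intercalated disc, -0.83 and -0.64, and Bckdhb, which encodes part of an enzyme complex that breaks down branched-chain amino acids, -0.54 and -0.47. The difference of Amy1 was farther from 0 than that of all 5 in both sexes, and that of Hdlbp nearer to 0. Ano10 and Bckdhb lie on chromosome 9, Ctnna3 on 10, and Exoc2 and Ssbp2 on 13, so none shares a chromosome with the 4 genes.

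Genes next to the 4 on the chromosome were examined to see whether the lower signal extended beyond each gene. The nearest 2 measured genes on each side were taken, 16 in all. Limma called 0 of the 16 in females and 0 in males, with 2 and 0 at an unadjusted p under 0.05. The share called over all genes was 0.281% in females and 0.62% in males, so 0 called is near it. Beside Amy1, Amy2a5 had 0.03 in females and 0.008 in males, and Rnpc3, a splicing factor of the minor spliceosome, 0.17 and -0.09. Prmt6 and Col11a1, the next ones out, lay between -0.04 and 0.03 in both sexes. Beside Dcakd, Nmt1, an N-myristoyltransferase, had 0.07 and 0.10, while 2410004I01Rik, C1ql1 and Acbd4 lay between -0.11 and 0.04.

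Around Hdlbp, Septin2, a septin of the cytoskeleton, had 0.40 in females (standard error 0.12, adjusted p = 0.194) and 0.05 in males, in the direction opposite to Hdlbp. Ppp1r7 had -0.007 and -0.02, Pask 0.11 and 0.14, and Farp2 -0.02 and 0.05. Around Ttll1, Bik, a gene that promotes apoptosis, had -0.32 in females (standard error 0.12), with -0.16 in males and adjusted p = 0.275 and 0.719, the same direction as Ttll1 but without a call. Mcat, an enzyme of mitochondrial fatty acid synthesis, had -0.15 and -0.02, Pacsin2 0.02 and -0.07, and 1700001L05Rik -0.03 and 0.01.

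**Figure D4:**
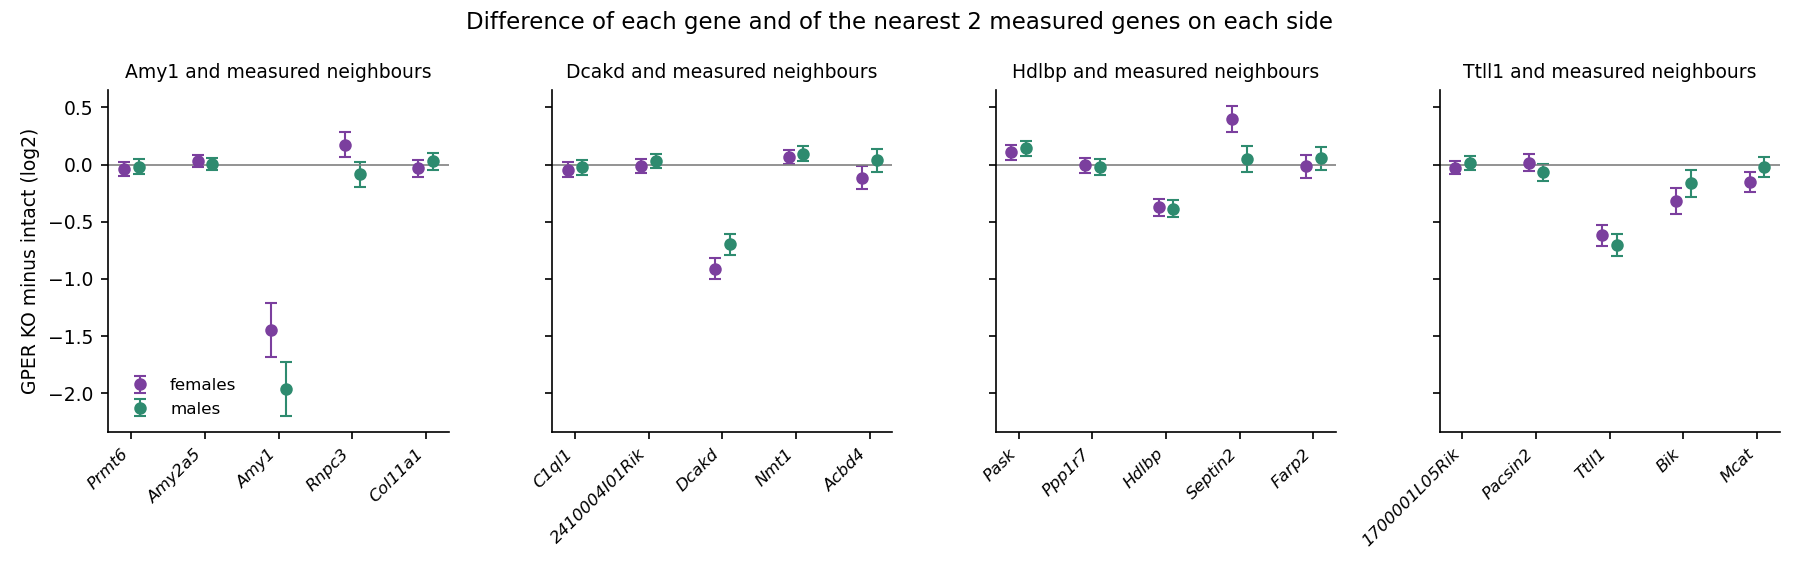
Log2 difference (GPER KO minus intact) of Amy1, Dcakd, Hdlbp and Ttll1, in the middle of each panel, and of the nearest 2 measured genes on each side, in their order along the chromosome. Points are estimates in females and males and bars are 1 standard error from limma. The neighbours lie between -0.32 (Bik, females) and 0.40 (Septin2, females).

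Differences between the sexes were tested within each genotype, 8 tests in all. The choice of the genes did not use these differences directly, but it required a lower signal in both sexes on the same arrays. The tests are thus not fully independent of the choice, and a lack of calls is to be read with that limit. Limma called none of the 4 in GPER KO mice, where 0.0702% of all genes were called, and none in intact mice, where 0.579% were, with 0 of the 8 at an unadjusted p under 0.05. Amy1 averaged 3.58 in male and 3.62 in female GPER KO mice, a difference of -0.04 (95% interval -0.53 to 0.46, adjusted p = 0.969). In intact mice it averaged 5.55 in males and 5.06 in females, a difference of 0.48 (95% interval -0.02 to 0.98, adjusted p = 0.301, and p = 0.229 in a two-sided exact permutation test), with overlap between 4.95 and 5.58. These intervals are wide, and a sex difference in intact mice of up to 0.98 lies within them.

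The other 3 genes had narrower intervals. For Dcakd the male minus female difference was 0.09 (-0.11 to 0.28, adjusted p = 0.757) in GPER KO and -0.13 (-0.32 to 0.07, adjusted p = 0.508) in intact mice. For Hdlbp it was 0.06 (-0.09 to 0.21, adjusted p = 0.789) and 0.07 (-0.08 to 0.22, adjusted p = 0.652), in GPER KO and in intact mice. For Ttll1 it was -0.06 (-0.26 to 0.14, adjusted p = 0.852) and 0.03 (-0.17 to 0.23, adjusted p = 0.909). The genotype difference itself, male minus female, was -0.52 (standard error 0.33) for Amy1, 0.22 (0.13) for Dcakd, -0.01 (0.10) for Hdlbp and -0.09 (0.13) for Ttll1, given as values because it combines the contrasts that chose the genes.

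**Figure D5:**
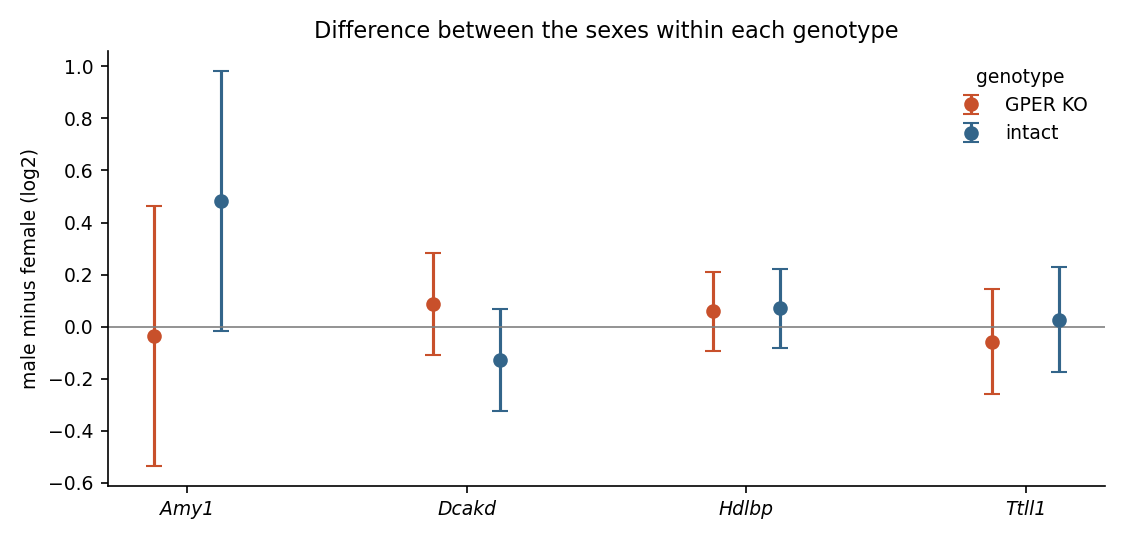
Male minus female log2 difference of each gene within GPER KO and within intact mice. Points are limma estimates (4 mice per sex and genotype) and bars are 95% intervals. All 8 intervals include 0, and that of Amy1 in intact mice reaches 0.98.

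Within groups the signals of the 4 genes had mostly low correlations with each other. Over the 6 pairs, the correlation of deviations from the 4 group means across 16 arrays was highest for Amy1 and Hdlbp (r = 0.45), and was 0.16 for Dcakd and Hdlbp, 0.08 for Amy1 and Dcakd, -0.003 for Hdlbp and Ttll1, -0.01 for Dcakd and Ttll1 and -0.16 for Amy1 and Ttll1. These are descriptions of arrays that share their normalization. Some probe sets of the same gene also had low correlations of deviations, as given above, so low values do not show that the genes vary separately. The genes whose deviations followed each of the 4 most closely, out of all genes, were 12 others. They were Tgfbrap1, Sva and Kmt5c for Amy1 (r = 0.85, 0.84 and 0.83), Lap3, Cryba1 and Camkv for Dcakd (0.87, 0.86 and 0.85), Arhgap26, Sesn1 and Per3 for Hdlbp (0.93, 0.92 and 0.90) and Usp13, Rwdd2b and Ccna2 for Ttll1 (0.89, 0.87 and 0.87). None of the 12 was called between genotypes in either sex, which is near the share of all genes (0.281% in females and 0.62% in males). Their log2 differences lay between -0.22 and 0.25.

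With the genotype difference left in the log2 values, the closest genes were others that were lower in GPER KO. Bckdhb (r = 0.92), Hdlbp (0.91) and Asb14 (0.91) were closest to Amy1, and Bckdhb (0.95), Exoc2 (0.94) and Ssbp2 (0.93) to Dcakd. Stard7 (0.96), Map3k5 (0.92) and Asb14 (0.91) were closest to Hdlbp, and Ssbp2 (0.89), Dcakd (0.88) and Tbc1d16 (0.88) to Ttll1. Such values over 16 arrays are set mainly by the genotype difference that chose the 4 genes and are not independent of it. Asb14, which encodes an ankyrin repeat protein with a SOCS box, had log2 differences of -0.32 in females and -0.30 in males, and Stard7, a carrier of phosphatidylcholine to mitochondria, -0.19 and -0.19. Map3k5, a stress-activated kinase, had -0.23 and -0.32, and Tbc1d16, a regulator of Rab GTPases, -0.32 and -0.27.

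Macrophage markers were higher in GPER KO and endothelial markers lower, mostly without a call. Limma called 0.281% of all genes in females and 0.62% in males, so 0 called in a list this short is near the share. Below intact were 58.8% of all genes in females and 43.5% in males, and the counts of markers are to be read against these shares. Of 12 macrophage markers, 11 were above intact in females and 12 in males, with medians of 0.37 and 0.73, and Cd68, Lyz2, Tyrobp, Ctss and Fcgr3 were called higher in males. In females 0 were called, with 4 at an unadjusted p under 0.05. The mean level of the list was 4.95 to 5.29 in female GPER KO and 4.62 to 4.92 in female intact arrays, and 5.21 to 5.93 in male GPER KO and 4.76 to 5.42 in male intact arrays. Of 12 endothelial markers, 12 were below intact in each sex, with medians of -0.29 in females and -0.35 in males and 0 called (1 and 3 at an unadjusted p under 0.05). Their mean level was 5.79 to 6.21 in female GPER KO and 6.01 to 6.57 in female intact arrays, and 5.84 to 6.37 in male GPER KO and 5.99 to 6.73 in male intact arrays. Of 9 measured atrial markers, 7 were below intact in females and 4 in males, with medians of -0.12 and 0.49. Limma called Nppa higher in both sexes and Pam higher in males, with 3 of the 9 at an unadjusted p under 0.05 in each sex. Myl4 and Myl7, atrial myosin light chains named after their values were seen, had log2 differences of -1.11 and -1.22 in females and 1.16 and 1.38 in males, without a call. The mean level of the atrial list was 5.71 to 6.52 in female GPER KO and 5.84 to 6.64 in female intact arrays, and 6.20 to 6.91 in male GPER KO and 5.82 to 6.42 in male intact arrays. Of 12 fibroblast markers, 4 were below intact in females and 5 in males (medians 0.19 and 0.07). Of 7 measured smooth muscle and pericyte markers, 6 and 5 were below intact (medians -0.17 and -0.15). Of 5 measured red blood cell markers, 3 and 2 were below intact, and of 5 measured adipocyte markers, 3 and 1. Limma called 0 in these lists in either sex, with 0 to 3 per list at an unadjusted p under 0.05. The part of these cells in the signal of the 4 genes was not tested. In such mixed preparations fewer cells of a type and less RNA per cell cannot be told apart. Of the 11 cardiomyocyte markers 0 were called in either sex (3 and 2 at an unadjusted p under 0.05), with medians of 0.01 in females and -0.01 in males.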

How the data were processed

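RNA of cardiomyocytes from 16 mice had been hybridized by the authors to Affymetrix GeneAtlas MG-430 PM arrays, 1 per mouse. The deposited values are log2 signals per probe set, for which RMA and Partek are listed in the submitters' processing notes, without versions. Scanner signals were not used here, so background correction and normalization were not repeated. Precision is limited by 4 arrays per group, and labels do not name array strips or days.

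Gene names come from the platform's annotation, updated by Entrez identifier to RefSeq (GRCm38.p6), which matched 28689 of 28898 probe sets with 1 gene. A total of 551 with several genes and 15692 with none were left out of gene tests. For the 7180 genes with several probe sets, the one with the highest mean was used. All genes were fitted with limma 3.58.1 (lmFit, contrasts.fit, eBayes) in R 4.3.3 on 4 group means, with Benjamini-Hochberg adjustment over 17097 genes and a threshold of 0.05. A second fit covered all 45141 probe sets. The fit was tested on simulated data with changed genes. Intervals are 95% intervals from the same fit.

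The 4 genes and all lists were chosen with earlier results of these data known. Named besides the 4 genes are Gper1, the 3 genes closest to each by either correlation, the nearest 2 measured genes on each side, and in each list called genes or otherwise the 2 with the highest mean. Coasy is named outside this rule, for its role, and Pank1 for its adjusted p in females. Promoter windows are from RefSeq, and 3 of the 4 genes, with 6 windows, were matched. Alternatives were the mean of probe sets, repeated quantile normalization, median centring, a filter (above the 40 percentile on at least 4 arrays), array weights, trend and robust eBayes, fewer arrays, animal number (low or high) as a block, every probe set and exact permutation. Leaving out female intact 421 and 422 together, and probe sets of suffix s_at and x_at, were added after seeing the data.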

Additional observations from a re-analysis of the deposited data

How the results depend on the processing

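The sign of the genotype differences of the 4 genes was fixed by their choice and is no sign of stability. Leaving out 1 array at a time gave -1.65 to -1.27 in females and -2.16 to -1.79 in males for Amy1, -0.98 to -0.85 and -0.74 to -0.63 for Dcakd, -0.42 to -0.33 and -0.42 to -0.34 for Hdlbp, and -0.71 to -0.54 and -0.76 to -0.65 for Ttll1. The mean of all probe sets brought Hdlbp to -0.30 in females and in males, and Ttll1 to -0.34 in females and -0.38 in males. Without sets of suffix s_at and x_at, another probe set stands for the gene. Hdlbp was then at -0.20 in females and -0.21 in males, and Ttll1 at -0.47 in females and -0.34 in males. Of the 4 genes, 2 to 4 were called in females and 3 to 4 in males when 1 array was left out. In females Amy1 was not called without intact 421 or GPER KO 426. Hdlbp was not called in females without any 1 of intact 418, intact 421, GPER KO 419, GPER KO 426, GPER KO 427, or 5 of the male arrays (430, 431, 432, 433 and 452), nor with quantile normalization repeated, nor in males without any 1 of intact 430, intact 433, intact 452 or GPER KO 444. The female count was 1 on the female arrays alone and 1 without intact 421 and 422 together, and the male count was 2 without s_at and x_at sets. Sex differences of the 4 genes passed no threshold in any alternative run.

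Over all genes, 48 were called between genotypes in females, 20 to 159 with 1 array left out (20 without intact 421, 159 without intact 425), 13 on female arrays alone and 10 without intact 421 and 422. In males 106 were called, 53 to 120 with 1 array left out (53 without intact 430), 181 with array weights and 66 on male arrays alone. Between the sexes 12 were called in GPER KO, 5 to 21 with 1 array left out (5 without female 419, 21 without male 451), 22 with array weights, 24 over every probe set and 5 on GPER KO arrays alone. In intact mice 99 were called, 13 to 375 with 1 array left out (13 without female 422, 375 without female 425), 43 with the mean of probe sets, 50 with median centring, 46 with array weights, 14 on intact arrays alone, 45 with the block of animal numbers and 7 without 421 and 422. The cause of these shifts was not tested. No paired analysis was possible because animal numbers are unique. None of 32 groups of 4 arrays, 4 for each of the 8 probe sets, held an array far from the others by Dixon's criterion.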
